A study of Mus musculus with 9 samples.

Results

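The Hox cluster genes described here are the 39 protein-coding genes of the mouse Hoxa, Hoxb, Hoxc and Hoxd clusters. They were chosen by symbol, a cluster letter followed by a paralog number, from the 55401 genes listed in a table of sequencing reads counted on genes of mouse testis. In the GRCm38 assembly, whose mouse coordinates are those of mm10, 11 of them lie in Hoxa on chromosome 6, 10 in Hoxb on chromosome 11, 9 in Hoxc on chromosome 15 and 9 in Hoxd on chromosome 2. All 39 had a row in the table, and the length that the counting gave to each gene equalled the length of its merged exons in the GENCODE vM21 annotation for 39 of them.

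The study used acRIP-seq, in which poly(A) RNA is incubated with beads carrying an antibody against N4-acetylcytidine (ac4C), a cytidine with an acetyl group that the enzyme NAT10 adds, and the recovered RNA is sequenced. Its testis comparison asked which transcripts were recovered more by this antibody than by a control antibody and than their level in the starting RNA. The 9 libraries came from testes of wild-type male mice, in 3 groups of 3. Input libraries hold the RNA before precipitation, with no antibody, IgG libraries hold what a rabbit control immunoglobulin brought down, and acRIP libraries hold what the ac4C antibody brought down. By the methods, wild-type mice were of the ICR strain, a β-globin RNA made in vitro with ac4C was mixed into the poly(A) RNA beforehand, and libraries were made by Smart-seq2, which starts from the poly(A) tail and amplifies the cDNA. No allele, drug or treatment is given for any group, and the age of these mice is not given in the sources used here. Nothing states that replicates were separate animals, so p-values measure the spread between libraries, which may be technical.

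Hox proteins are transcription factors that bind DNA through a homeodomain and give cells their position along the head to tail axis of the embryo. Within each cluster the genes stand in the order in which they are used along that axis, so that members of paralog group 1 act towards the head and those of group 13 towards the tail, limb ends and genital region. They bind together with the PBX, MEIS and PKNOX (TALE) homeodomain cofactors, Polycomb complexes keep them silent where they are not used, and MLL (Trithorax) complexes keep them active. In the adult mouse testis, Hoxa4 is known for its transcripts in germ cells.

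Hoxd9, Hoxb7, Hoxa7 and Hoxc10 are the members on which the acRIP results turned, and stretches of their coding sequences are shown because ac4C is a change of cytidine and because Hox genes resemble each other. The first set shows, for each of these genes, 30 bases of coding exon 1 (sense strand, GRCm38.p6) with the longest run of cytidines at every 3rd base, whose cytidines are in capitals. They lie at chr2:74698519-74698548 for Hoxd9, chr11:96286839-96286868 for Hoxb7, chr6:52217248-52217277 (minus strand) for Hoxa7 and chr15:102967052-102967081 for Hoxc10.
Hoxd9: CggCccCggCccCcgCtgCagCctCcaCct
Hoxb7: CccCagCgcCcgggctatggagcaggtccg
Hoxa7: CgcCggCgcCttCgcCtcCactgtgccggg
Hoxc10: CctCaaCacCtaCccgtcctacctctcgca
The run in Hoxd9 goes on past these 30 bases to 22 cytidines, while those of Hoxa7, Hoxc10 and Hoxb7 end after 7, 5 and 4. Over the 39 members the longest run held from 4 to 28 cytidines (median 9), so the 4 genes spanned most of the family's range.

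The second set is the recognition helix of the homeodomain, the part that reads the DNA bases, in coding exon 2 of Hoxb7, Hoxa7 and Hoxc10. Capitals mark each base that differs from the most common base at that place among the 39 members.
Hoxb7: aaGatctggttTcagaaccggCgcatgaag
Hoxa7: aaGatctggttccagaaTcggCgcatgaag
Hoxc10: aaaatctggttTcaAaaTcgCagAatgaaA
Hoxb7 and Hoxa7 differed from the most common sequence at 3 bases each and Hoxc10 at 6. The longest run of exon sequence shared exactly with another member was 40 bases for Hoxd9 (with Hoxb9), 37 for Hoxb7 (with Hoxb6), 47 for Hoxa7 (with Hoxb4) and 23 for Hoxc10 (with Hoxb9), within a range of 17 to 52 over all members. Reads were counted only where they mapped to a single place. By the methods, paired reads were sequenced to a length above the longest of these runs. Only a read trimmed shorter than a run could lie wholly inside it.

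The primers that the study designed for its own quantitative PCR of Hoxd9 and Hoxb7 are shown because they fix which piece of each transcript was measured there.
Hoxd9 forward: gccactacgggattaagcctg
Hoxd9 reverse: gcggagcactcagtccttt
Hoxb7 forward: aagttcggttttcgctccagg
Hoxb7 reverse: acaccccggagaggttctg
The Hoxd9 pair spans 115 bases at chr2:74698489-74698603 and the Hoxb7 pair 248 bases at chr11:96286778-96287025. Both amplicons lie in coding exon 1, and each primer matched 1 gene among the tested genes and the Hox genes. Other annotated genes were not searched. The Hoxd9 amplicon contains the printed cytidine run, and the Hoxb7 amplicon contains that of Hoxb7.

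Cytidine made up a median of 27.5% of the merged exon bases of the 39 Hox genes, against 23.7% over 21900 tested genes whose sequence could be read. The pattern CNNCNNCNNC (N is any base, sense strand, overlapping matches allowed) occurred at a median of 15.4 per kilobase in the Hox genes and 5.76 over those tested genes. Among Hox genes tested, the median was 13.4 in the 4 genes higher in acRIP than in both control groups and 15.2 in the 11 others. Hoxd9 had 30.9 matches per kilobase and Hoxb7 had 3.89, so the 4 genes had no density in common. The pattern CNCAGNNC, a looser form of the motif that the study derived from its peaks, had medians of 2.06 per kilobase in the Hox genes and 1.57 over the tested genes. Of all 30-base windows of tested genes, 8.63% held CNNCNNCNNC and 3.87% held CNCAGNNC.

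Library totals ran from 22023925 to 31340090 counts for input, 14647542 to 18786779 for IgG and 16025779 to 18639134 for acRIP. As for the labelled tissue, 7 spermatid markers summed to between 17910 and 22877 CPM (counts-per-million) in every library, whereas 8 epididymal markers summed to between 2.25 and 5.18. Of the Hox values from 1 to 20, 95 of 108 (88.0%) were even, a pattern that counting the 2 mates of each pair gives, and fragments may then number fewer than counts. Replicates of a group differed by more than sampling noise, with a mean chi-square per gene between 3.85 and 5.84.

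Of the 39 Hox genes, 19 had fewer than 10 counts in every library. Hoxa2, Hoxa10, Hoxb1, Hoxd1 and Hoxd12 had no read in any of the 9 libraries, a further 4 members never had more than 3 counts, 10 had a highest count between 4 and 9, and 20 reached 10 counts in at least 1 library. In bulk tissue such as the input RNA, a low level from few cells and one from little RNA per cell cannot be told apart. A count of 0 allows up to 3 counts, which is 0.0957 to 0.136 CPM in input, 0.160 to 0.205 in IgG and 0.161 to 0.187 in acRIP, a limit that covers counting error only. Between 21 and 23 members had a count in an input library, 18 to 22 in an IgG library and 14 to 16 in an acRIP library. All 3 acRIP libraries were at 0 for 22 members, all IgG libraries for 14 and all input libraries for 11. Counts were seen in input alone for 7 members and in IgG alone for 6, and in acRIP alone for 0. Shares of all genes with these patterns by group were not computed, so they cannot be read as particular to Hox genes. Over all genes listed, 40.1% to 40.4% had a count in an acRIP library, 47.3% to 48.5% in an IgG library and 51.5% to 53.5% in an input library, so the lower number of genes seen in acRIP was not limited to Hox genes.

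**Figure D1:**
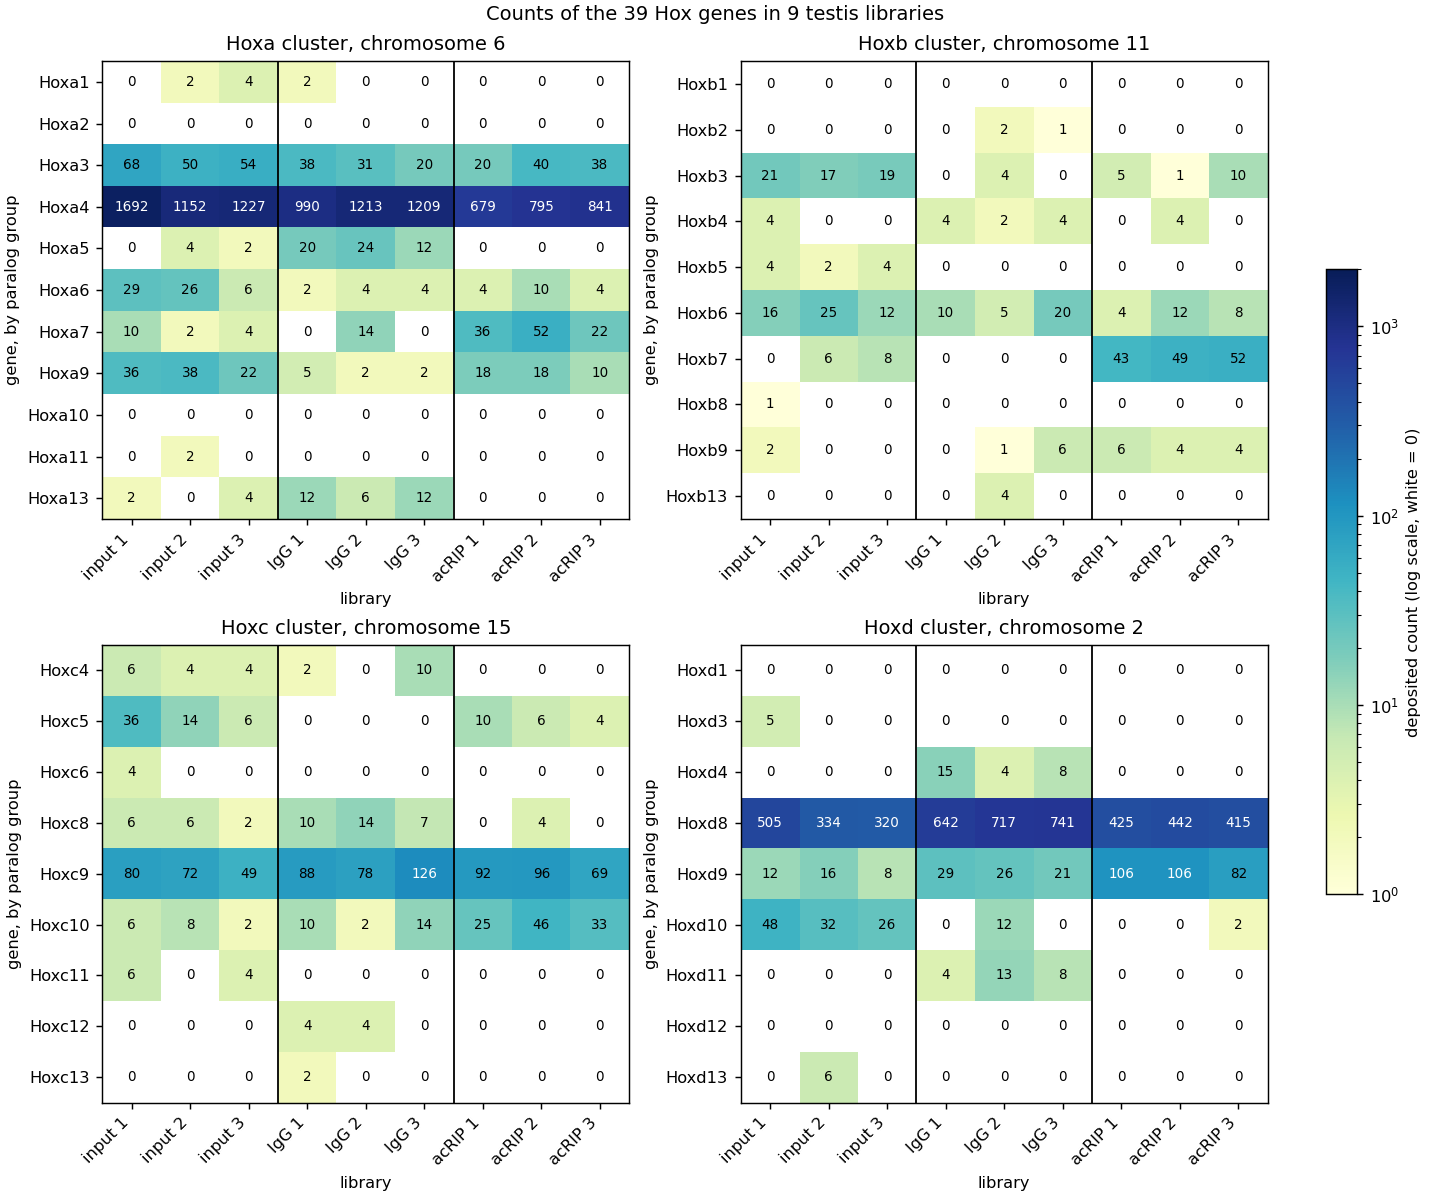
Deposited counts of the 39 Hox genes (rows, by paralog group within each cluster) in the 9 libraries (columns), with the colour on a log scale and white for 0. Hoxa4 and Hoxd8 had at least 320 counts in every library, and 5 genes were at 0 throughout.

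Hoxa4 and Hoxd8 held most of the Hox reads. Hoxa4 had 1692, 1152 and 1227 counts in the input libraries, 990, 1213 and 1209 in IgG and 679, 795 and 841 in acRIP. Hoxd8 had 505, 334 and 320 counts in input, 642, 717 and 741 in IgG and 425, 442 and 415 in acRIP. Their joint share of the Hox counts was 81.7% to 86.6% among input libraries, 86.4% to 88.5% among IgG libraries and 73.4% to 78.8% among acRIP libraries. The share of the acRIP libraries was the lowest, and its range did not overlap the others. The other 37 members summed to 10.8 to 15.1 CPM in input, 13.4 to 17.5 in IgG and 20.2 to 24.0 in acRIP.

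Per length, the order of the leading members was not the same in the 3 groups. In CPM per kilobase of exon, input libraries had a Hoxa4 level of 33.8 ± 0.938, IgG libraries 41.2 ± 1.02 and acRIP libraries 28.3 ± 2.76 (mean ± SD, n = 3). Hoxd8 came next, at 5.55 ± 0.309, 14.8 ± 1.06 and 9.11 ± 0.517. Hoxc9, which sets thoracic motor neuron identity in the spinal cord, was the third in input at 1.10 ± 0.223, followed by Hoxa6 (0.906 ± 0.537), whose spread covered both its neighbours, and Hoxd10 (0.763 ± 0.104). In acRIP the third place was held by Hoxd9 at a level of 2.68 ± 0.404, followed by Hoxc9 at 2.06 ± 0.339, Hoxb7 at 1.82 ± 0.167 and Hoxc10 at 1.05 ± 0.238, and the spreads of these neighbours overlapped except for Hoxb7 and Hoxc10. In input the levels of Hoxd9, Hoxb7 and Hoxc10 were 0.229 ± 0.0960, 0.137 ± 0.122 and 0.113 ± 0.0723.

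**Figure D2:**
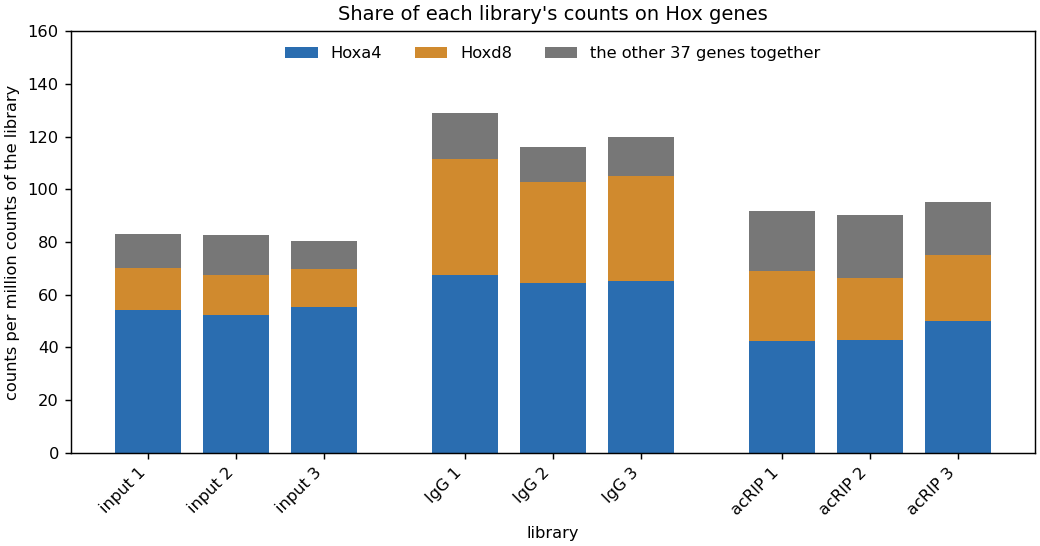
Hox CPM in each library, stacked as Hoxa4, Hoxd8 and the sum of the other 37 genes. The other 37 genes summed to 20.2 to 24.0 in the acRIP libraries, above every input and IgG library.

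Hoxd9, Hoxb7, Hoxa7 and Hoxc10 were higher in acRIP than in both IgG and input. They came from all 4 clusters, 1 from each, and from paralog groups 7, 9 and 10. The calls were made by edgeR's quasi-likelihood test over 22510 genes, at limits of 0.05 for the p adjusted by Benjamini-Hochberg and of 2 for the fold change. The background over all genes tested was 7.88% higher and 17.0% lower in acRIP against both groups, and among the 15 Hox genes tested 4 were higher and 0 lower. Since low genes passed the filter on counts only through a group where they were high, these shares describe the 15 genes, and the 24 members too low to be tested are not in them. The same holds for the numbers of each single comparison below. In some alternatives 1 Hox gene was lower against both groups. Hoxb7 and Hoxd9 are also the Hox genes that the study picked for PCR after seeing these libraries.

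Hoxd9, a gene of forelimb and vertebral patterning, had 106, 106 and 82 counts in acRIP, 29, 26 and 21 in IgG and 12, 16 and 8 in input. The 3 groups did not overlap, with acRIP highest and input lowest. The log2 fold change was 2.00 (SE 0.34, edgeR adjusted p = 6.89e-06) against IgG, which is 3.99-fold, and 3.63 (SE 0.37, edgeR adjusted p = 3.29e-10) against input, which is 12.4-fold. It lies at chr2:74697727-74700208 on the plus strand, and none of its exon bases is shared with another annotated gene.

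Hoxb7, known for its activity in the embryonic kidney ducts, had 43, 49 and 52 counts in acRIP, 0 in all 3 IgG libraries and 0, 6 and 8 in input. Every acRIP library was above every other library. The level in acRIP was at least 16.5-fold higher than in IgG, computed against 3 counts in each IgG library, or at least 8.27-fold with 6 counts (3 read pairs), with an edgeR adjusted p of 2.62e-07. Against input the log2 fold change was 3.87 (SE 0.68, edgeR adjusted p = 9.83e-06), or 14.6-fold, and it moved to 3.21 without input replicate 1 and to 4.56 without input replicate 3. The gene lies at chr11:96286623-96290162 on the plus strand and shares no exon base with another gene.

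Hoxa7, a gene of trunk patterning, had 36, 52 and 22 counts in acRIP, 0, 14 and 0 in IgG and 10, 2 and 4 in input. The lowest acRIP library stood above the highest of the others, although the acRIP values were, relative to their mean, the most spread of the 4 genes. The log2 fold change was 3.04 (SE 0.78, edgeR adjusted p = 0.00109) against IgG and 3.41 (SE 0.77, edgeR adjusted p = 0.000221) against input. All IgG counts came from replicate 2, and the log2 fold change against IgG was 8.47 without it, where IgG is at 0, and 2.45 without IgG replicate 3. Of its exon bases at chr6:52214491-52221854, 20.4% are shared with the antisense gene Hoxaas3, which had 0 counts in every acRIP library.

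Hoxc10, a gene of lumbar and hindlimb patterning, had 25, 46 and 33 counts in acRIP, 10, 2 and 14 in IgG and 6, 8 and 2 in input. The acRIP libraries did not overlap either of the other groups, whereas IgG and input did overlap. The log2 fold change was 2.02 (SE 0.62, edgeR adjusted p = 0.00516) against IgG and 3.27 (SE 0.66, edgeR adjusted p = 5.02e-05) against input. When the test was made against a fold change of 2 rather than of none, the call against IgG was lost (edgeR adjusted p = 0.0665). The gene lies at chr15:102966796-102971893, and 8.70% of its exon bases are shared on the same strand with a long form of Hoxc5.

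**Figure D3:**
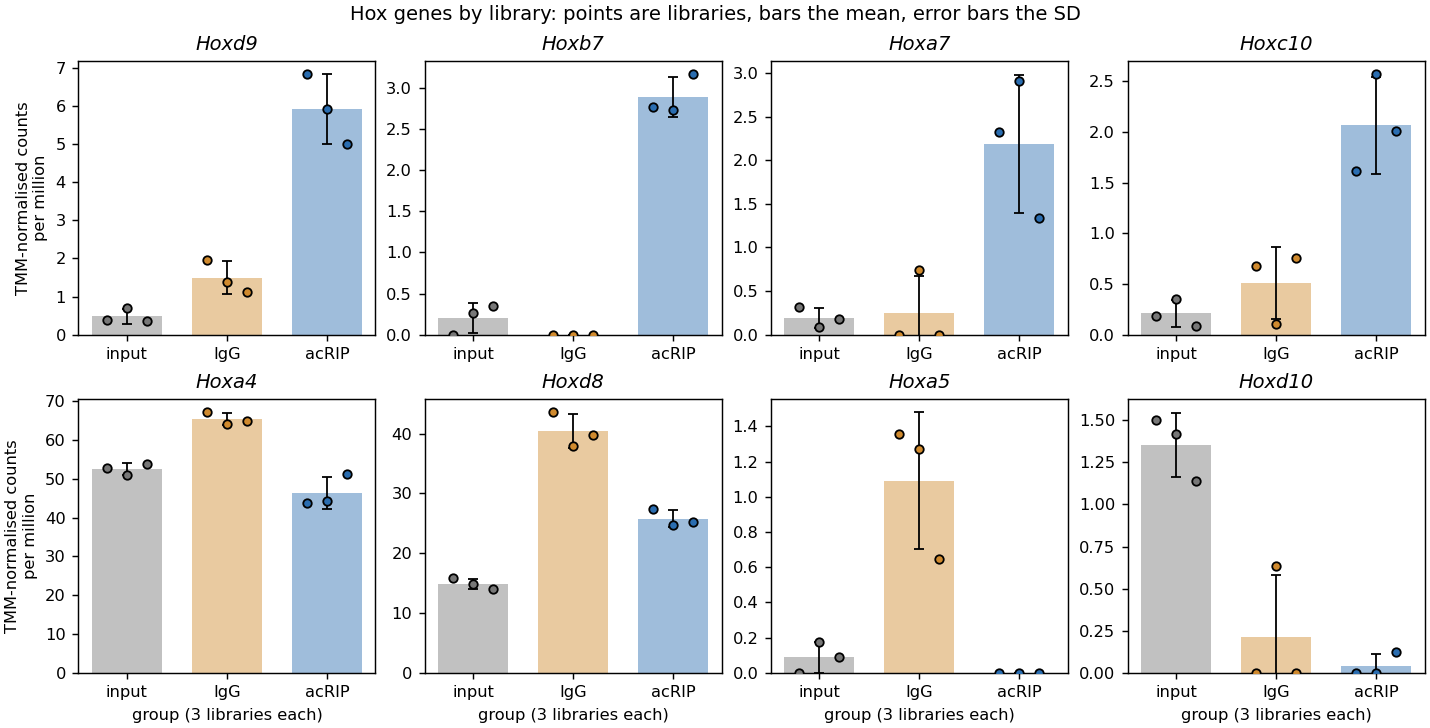
TMM-normalised CPM of 8 Hox genes in the 3 groups, with a point for each library, bars for the mean and error bars for the SD (n = 3), and a separate scale from 0 for each gene. In the upper row, Hoxd9, Hoxb7, Hoxa7 and Hoxc10 have every acRIP library above every IgG and input library; in the lower row, Hoxa4 and Hoxd8 are highest in IgG, Hoxa5 is at 0 in acRIP and Hoxd10 is highest in input.

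Against IgG alone, 6 Hox genes were higher in acRIP and 1 was lower, with a background of 11.5% higher and 20.9% lower over all genes. DESeq2, with 34 Hox genes tested, called 6 higher and 6 lower, beside 2884 higher and 6130 lower of the 35699 genes it tested. Besides the 4 genes above, Hoxa9 and Hoxc5 were higher, and for both the level in acRIP did not pass the test against input. Hoxa9, a gene of blood stem cell growth, had 18, 18 and 10 counts in acRIP, 5, 2 and 2 in IgG and 36, 38 and 22 in input. The log2 fold change over IgG was 2.35 (SE 0.69, edgeR adjusted p = 0.00361), and 3.04 without IgG replicate 1, and that over input was -0.44 (SE 0.55, edgeR adjusted p = 0.477). Hoxc5 had 10, 6 and 4 counts in acRIP, 0 in each IgG library and 36, 14 and 6 in input. It was at least 2.33-fold higher than in IgG against 3 counts in each IgG library and at least 1.17-fold against 6 (edgeR adjusted p = 0.00108). Without acRIP replicate 1 the first bound was 1.66-fold and the second fell under 1. For both genes the low group was IgG, not input.

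Hoxa5, which is needed for lung development, was the gene lower in acRIP than in IgG. It had 0 counts in all 3 acRIP libraries, 20, 24 and 12 in IgG and 0, 4 and 2 in input. IgG stood apart from both other groups, being at least 6.03-fold above acRIP against 3 counts and at least 3.01-fold against 6 (edgeR adjusted p = 4.28e-05), and 12.6-fold above input (log2 fold change 3.65, SE 0.86, edgeR adjusted p = 0.000659), a log2 value that was 2.98 without input replicate 1 and 4.61 without input replicate 2. Another 4 members, too low for the filter and picked here after their values were seen, had 0 counts in every acRIP library as well. Hoxa13, a gene of digits and the genital tubercle, had 12, 6 and 12 counts in IgG and 2, 0 and 4 in input, and Hoxd4 had 15, 4 and 8 in IgG and 0 in input. Hoxd11 had 4, 13 and 8 counts in IgG and 0 in input, while Hoxc4 had 2, 0 and 10 in IgG and 6, 4 and 4 in input, which overlap.

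Against input, 4 Hox genes were higher in acRIP and 1 was lower, with a background of 17.7% higher and 22.9% lower over all genes. The 4 were Hoxd9, Hoxb7, Hoxa7 and Hoxc10, the same genes as against both groups. Hoxd10, which patterns the hindlimb and its motor neurons, was lower, with 48, 32 and 26 counts in input, 0, 0 and 2 in acRIP and 0, 12 and 0 in IgG. Its 106 counts in input against 2 in acRIP give a ratio of 34.1 after scaling by library size, with an exact 95% counting interval of 9.22 to 286 (edgeR adjusted p = 0.000139). That interval leaves out the spread between libraries. It is too narrow if both mates of a pair were counted. Both acRIP counts were in replicate 3, and the fitted log2 fold change of -4.87 was -7.79 without it, where acRIP is at 0. The neighbours Hoxd9 and Hoxd10 thus differed in opposite directions from input, each with groups that did not overlap.

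IgG libraries also differed from input, with 10 Hox genes called. In IgG, 4 Hox genes were higher (Hoxd8, Hoxd9, Hoxc9 and Hoxa5) and 6 were lower (Hoxa6, Hoxa9, Hoxb3, Hoxb7, Hoxc5 and Hoxd10) than in input, against a background of 13.5% higher and 7.22% lower over all genes. Low genes among them were tested only through a group where they were high, so these numbers describe the 15 genes tested. DESeq2, which tested 34 Hox genes, called 6 higher and 4 lower, with Hoxd4 and Hoxd11 added to the higher genes and Hoxa6 and Hoxd10 lost from the lower. Over all 35699 genes DESeq2 called 3275 higher and 1779 lower. Hoxd8 was 2.71-fold higher in IgG, with a log2 fold change of 1.44 (SE 0.10, edgeR adjusted p = 4.52e-14). Its acRIP level lay between them, 0.79 above input (SE 0.10, edgeR adjusted p = 3.87e-08) and 0.65 below IgG on the log2 scale (-0.65, SE 0.10, edgeR adjusted p = 1.17e-06), and both differences were under the fold limit. Hoxd9 was also 3.11-fold higher in IgG than in input (log2 fold change 1.64, SE 0.40, edgeR adjusted p = 0.00088), so it also took a larger share of the control precipitate's libraries than of input.

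Hoxc9 had 88, 78 and 126 counts in IgG, 80, 72 and 49 in input and 92, 96 and 69 in acRIP. Its log2 fold change was 1.11 for IgG over input (SE 0.25, edgeR adjusted p = 0.000447), which fell to 0.95 without IgG replicate 3 and to 0.99 without input replicate 3, both under the fold limit. For acRIP over input it was 0.98 (SE 0.26, edgeR adjusted p = 0.001), just under the limit, and for acRIP over IgG it was -0.12 (SE 0.25, edgeR adjusted p = 0.686). Both precipitates thus lay above input for Hoxc9, with overlapping values.

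Among the genes lower in IgG, Hoxa9 had a log2 fold change of -2.79 over input (SE 0.66, edgeR adjusted p = 0.000684) and -3.47 without IgG replicate 1. Hoxb3, a hindbrain gene, had 21, 17 and 19 counts in input, 0, 4 and 0 in IgG and 5, 1 and 10 in acRIP, a log2 fold change of -3.20 for IgG over input (SE 0.94, edgeR adjusted p = 0.00473) and -6.91 without IgG replicate 2. Of its exon bases, 52.9% are shared with the antisense gene Hoxb3os. Hoxc5 was at least 3.83-fold lower in IgG than in input against 3 counts, and at least 1.92-fold against 6 (edgeR adjusted p = 0.000162). Without input replicate 1, which held 36 of its counts, these bounds were 2.53-fold and 1.26-fold. The remaining 3 calls were less steady. Hoxb7, at 0 in IgG and at 0, 6 and 8 counts in input, had an edgeR adjusted p of 0.0123, and of 0.0523 without input replicate 3, and is given no fold because 6 counts in each IgG library would exceed its input level. Hoxd10 had a log2 fold change of -2.57 (SE 0.81, edgeR adjusted p = 0.00812), with all IgG counts in replicate 2, -7.77 without that library and an edgeR adjusted p of 0.0507 without IgG replicate 3. Hoxa6 had 29, 26 and 6 counts in input, 2, 4 and 4 in IgG and 4, 10 and 4 in acRIP (-1.99, SE 0.74, edgeR adjusted p = 0.0247), and its adjusted p was 0.0574 to 0.0794 without any 1 of the IgG libraries.

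**Figure D4:**
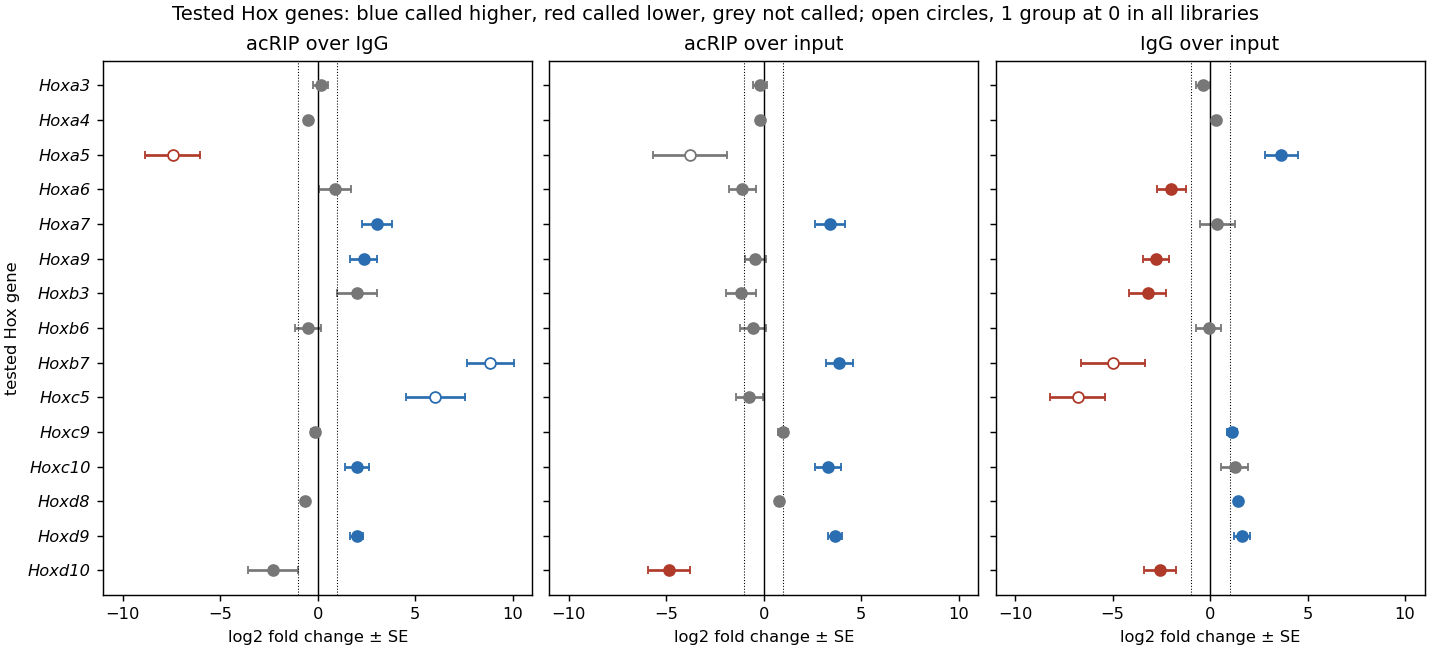
Log2 fold changes with their SE for the 15 tested Hox genes in the 3 comparisons, blue for called higher, red for called lower and grey for not called, with dotted lines at the fold limit. Open circles mark a comparison in which 1 group was at 0 in all libraries, where the fitted value is not a bound; Hoxd9, Hoxb7, Hoxa7 and Hoxc10 are blue in both acRIP panels.

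Hoxa3, Hoxa4 and Hoxb6 were tested without a call in any comparison. Hoxa4 passed the p limit but not the fold limit in all 3, at -0.50 (SE 0.07, edgeR adjusted p = 8.51e-07) for acRIP over IgG, -0.18 (SE 0.07, edgeR adjusted p = 0.0286) for acRIP over input and 0.32 (SE 0.07, edgeR adjusted p = 0.00036) for IgG over input. On average the most abundant Hox transcript thus took a smaller share of the acRIP libraries than of the IgG and input libraries. Fold changes here compare shares of libraries, not amounts of RNA. The methods state that too little RNA was precipitated to be quantified. Hoxa3 had log2 fold changes of 0.16, -0.19 and -0.35 and Hoxb6 of -0.49, -0.56 and -0.07 in the same order. Over the 15 tested genes the median log2 fold change for acRIP over IgG was 0.89. For acRIP over input it was -0.19 and for IgG over input -0.07. Medians over all genes were -0.09, -0.10 and -0.01. The 0.89 is the value of Hoxa6, which was not called there (SE 0.81, edgeR adjusted p = 0.35). It ranged from 0.022 to 1.25 when single libraries were left out. With the 34 Hox genes tested by DESeq2 it was -0.05, beside -0.03 over all genes. Setting genes at 0 to their bounds left the medians of the 15 unchanged, which shows little, since those genes kept their side of the median.

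By cluster, the summed level of Hoxd genes was 16.0 to 18.2 CPM in input, 41.1 to 47.1 in IgG and 29.4 to 33.1 in acRIP, an order set by Hoxd8. Hoxa genes summed to 57.9 to 59.6, 67.7 to 73.0 and 47.2 to 54.5 in the same order of groups, which follows Hoxa4. Hoxb genes summed to 1.53 to 2.27, 0.956 to 1.67 and 3.62 to 4.41, so that acRIP was highest in this cluster through Hoxb7. Hoxc genes summed to 3.02 to 4.72, 5.22 to 8.44 and 6.32 to 8.15, with IgG and acRIP overlapping. By position, 0 of 8 members of paralog groups 1 to 3, 2 of 15 of groups 4 to 8 and 2 of 16 of groups 9 to 13 passed in acRIP over both controls. Only 2, 8 and 5 of these members could be tested, and with 7.88% called over all genes, no difference by position can be read from such counts.

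Other genes inside the clusters, taken with Evx1 and Evx2 that lie outside them, gave 10 tested of 48. Of these, 1 was higher and 3 were lower in acRIP than in both groups, beside 7.88% and 17.0% over all genes. Gm53, a noncoding RNA gene of the Hoxb cluster, was higher in acRIP than in both groups, with 40, 77 and 52 counts in acRIP, 4, 6 and 18 in IgG and 8, 4 and 6 in input (log2 fold change 2.65 over IgG, edgeR adjusted p = 3.77e-05). Hotair, a noncoding RNA of the Hoxc cluster, was lower than in both, with 30, 32 and 23 counts in acRIP, 90, 117 and 115 in IgG and 139, 113 and 133 in input (log2 fold change -1.85 over IgG, edgeR adjusted p = 2.80e-07). Hoxaas3, the antisense gene at Hoxa7, had 0 counts in acRIP, 26, 27 and 39 in IgG and 96, 57 and 48 in input, the opposite direction to Hoxa7 (edgeR adjusted p = 2.78e-08 over IgG). Evx2, the homeobox gene beside Hoxd13, was also lower than in both, with 8, 0 and 0 counts in acRIP, 14, 22 and 36 in IgG and 18, 26 and 34 in input (log2 fold change -3.01 over IgG, edgeR adjusted p = 0.00156). Haglr, a noncoding RNA of the Hoxd cluster, passed against IgG only, at a fold change just over the limit of 2, with 1083, 1301 and 1134 counts in acRIP, 571, 651 and 607 in IgG and 1751, 1107 and 1102 in input (edgeR adjusted p = 3.83e-12 over IgG).

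Of 9 TALE cofactor genes, 8 were tested, and 0 were higher and 1 lower in acRIP than in both groups, a number that the background of 17.0% lower over all genes would also give. The lower gene was Meis3, with 0 counts in acRIP, 12, 20 and 16 in IgG and 43, 26 and 28 in input (edgeR adjusted p = 7.69e-06 over IgG). Pbx2 and Pbx3 were higher than input in acRIP and in IgG alike, by 1.80 and 1.23 in acRIP and 2.43 and 1.75 in IgG on the log2 scale. Of 3 Cdx genes, upstream activators of Hox clusters, 0 could be tested.

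Of 28 Polycomb genes 27 were tested, with 1 higher in acRIP than in both groups (Pcgf2, log2 fold change 1.20 over IgG) and 3 lower (Ezh1 at -1.25, Jarid2 at -1.64 and Cbx2, which had 0 counts in acRIP), which is no more than the 7.88% higher and 17.0% lower over all genes. Of 12 MLL complex genes 11 were tested, with 0 higher and 0 lower in both. Of 16 retinoic acid pathway genes, a pathway that switches on the head-side Hox genes in the embryo, 13 were tested and the receptor gene Rarg was higher in both (1.57 over IgG), with 0 lower.

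Some cell type markers also differed between the groups, and their part in the Hox results was not tested. Over all genes tested, 7.88% were higher and 17.0% lower in acRIP than in both other groups. Against both groups, 1 of 7 spermatogonial markers was higher and 1 lower, and 0 of 6 spermatocyte and 0 of 7 spermatid markers were called. Macrophage markers were lower in acRIP than in both groups for 3 of 4 genes, with summed levels of 1.07 to 2.62 CPM in acRIP, 10.9 to 15.2 in IgG and 12.5 to 14.6 in input. Endothelial markers were higher for 2 (Cdh5 and Tek) and lower for 1 (Pecam1) of 4, summing to 25.5 to 32.6, 8.12 to 11.1 and 10.6 to 13.3. Sertoli cell markers were lower for 2 of 10 tested, summing to 1158 to 1190, 1243 to 1335 and 1555 to 1592, with Rhox5 at 0 in every library. Erythroid markers summed to 1.82 to 2.25 in acRIP, 14.3 to 16.4 in IgG and 19.4 to 22.5 in input, with Alas2 lower than in both groups (log2 fold change -2.92 over IgG) and Epb42 at 0 in every library. Leydig cell markers had 0 of 8 called against both groups, and peritubular markers had 1 of 6 higher (Tagln). Of the mesonephric markers Pax2 and Pax8, Pax8 was at 0 in all 9 libraries, and their sum was 1.12 to 1.91 in acRIP, 1.37 to 2.34 in IgG and 0.272 to 1.02 in input.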

How the data were processed

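The deposited table holds raw counts of uniquely mapped reads for each gene in 9 libraries. Per the labels, reads were trimmed with Trim Galore 0.6.7, mapped to mm10 with STAR 2.7.10a and counted with featureCounts 2.0.2. Which annotation release and strand setting were used, and whether mates were counted separately, is not given in the sources used here, so overlapping and antisense genes are uncertain. Genes were named through GENCODE vM21, which holds 55141 of the 55401 identifiers. All sample columns were used (0 were left out). The test of these counts was edgeR's quasi-likelihood test (4.0.16, in R 4.3.3) after filterByExpr and TMM scaling, in 1 fit of all 9 libraries with 1 mean per group. Calls needed a fold change over 2 and a p, adjusted by Benjamini-Hochberg over 22510 genes, under 0.05. Scripts were tested on simulated data. The authors' methods name DESeq2, which was run as an alternative (1.42.0), and limma 3.58.1 was used for log2 levels per length. The paper's results describe a rule on ratios of levels per length, with 1 added, and t-tests. The limma calls kept the fold limit but used a p under 0.05 that was not adjusted. Levels per kilobase used the gene length in the deposited table. Sequences were read from GRCm38.p6, and 87 of 87 Hox transcripts of GENCODE equalled it. All members, gene lists and named genes (each member with a call, the members at 0, and called genes of the lists) were chosen with earlier results of these data known. Alternatives were other scalings, filters and tests, halved counts, blocking on the replicate number, and leaving out single libraries. Bounds without a library were added after the data were seen. A few items are not reported here.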

Additional observations from a re-analysis of the deposited data

How the results depend on the processing

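In 19 of 21 alternatives the same 4 Hox genes passed in acRIP over both IgG and input. Against a fold change of 2 there were 3, without Hoxc10, beside 954 of 22510 genes. On log2 levels per kilobase with a pseudocount of 1 there were 2, Hoxb7 and Hoxd9, beside 703 of 35699 genes. For HEK293T cells, the paper's results give a rule of this kind, with 1 added to levels per length before ratios are taken. Its p came from Student's t-tests at a limit of 0.05, where limma was used here. This setting is the nearest one here to that rule, and Hoxa7 and Hoxc10 did not pass in it. The pseudocount of 1 exceeds most Hox levels. Calls on levels per kilobase, with either pseudocount, used a p under 0.05 that was not adjusted. With the pseudocount of 1, the genes called were also 2 for acRIP over IgG, 2 for acRIP over input and 1 for IgG over input, in place of 7, 5 and 10. For acRIP over IgG, 12 were called by DESeq2, 12 with every gene that had a count and 11 with a pseudocount of 0.1, which test 34 Hox genes instead of 15. The first 2 add Hoxa13, Hoxc4, Hoxc8, Hoxd4 and Hoxd11, all lower. Over all 35699 genes these settings called, in the same order, 2884, 3007 and 2737 higher and 6130, 6440 and 6234 lower. For IgG over input, where 4 were higher and 6 lower, DESeq2 gave 6 and 4 and the pseudocount of 0.1 gave 8 and 6, while 5 were called against a fold change of 2 and 6 with counts halved, which leaves 10 Hox genes tested. Of all 35699 genes, 3275 were higher and 1779 lower by DESeq2, and 3655 and 2752 with the pseudocount of 0.1. These numbers were 1724 and 563 of 22510 against a fold change of 2, and 2692 and 1320 of 19955 with counts halved. Leaving out each library in turn gave 4 to 4 genes higher against both groups, 7 to 10 called for acRIP over IgG, 5 to 6 for acRIP over input and 7 to 12 for IgG over input. In some of these fits 1 Hox gene was lower against both groups. It was Hoxa5 without input replicate 1, Hoxc8 without acRIP replicate 2, and Hoxd10 without IgG replicate 3 or acRIP replicate 3. Those fits called 3963 to 4038 of 23307 to 23543 genes lower. With every gene that had a count, Hoxc4 was lower, beside 4749 of 35699 genes. Deviations of same-numbered libraries had correlations of -0.0066 to 0.035, and those of differently numbered libraries -0.029 to 0.027. Such values cannot show whether same-numbered libraries share an RNA source. A replicate block left 4, 7, 5 and 9 calls in these results, the one lost being Hoxa6. Of 450 recomputed values of the 22 called differences, 34 lost the call and 0 changed sign. Of 464 values not called, 10 changed sign. When single libraries were left out, Hoxa3 ranged from -0.10 to 0.51 for acRIP over IgG and from -0.32 to 0.035 for acRIP over input, Hoxa7 from -5.05 to 0.97 for IgG over input (-0.044 with the replicate block), Hoxb6 from -0.60 to 0.38 for IgG over input and from -0.88 to 0.042 for acRIP over IgG, Hoxc9 from -0.30 to 0.037 for acRIP over IgG, and Hoxd10 from -5.23 to 2.90 for acRIP over IgG. The cause of these moves was not tested. Depth limits the 24 members not tested and every fold against a group at 0.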
